A study of Mus musculus with 8 samples.

Results

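The genes described here are 38 genes that dividing cells need to copy their DNA and to split their chromosomes, followed in rib chondrocytes, the cells of growing cartilage. Members were chosen by name, with earlier results of these data known: 13 act in DNA replication and 25 in mitosis. For each, the brightest probe set assigned to that symbol alone was used, by its mean over all arrays. Such a probe set was found for 37 of the 38, out of 18193 genes on the array, and all 37 were bright enough to be tested, among 11013 such genes. The remaining member, Ccnb1 (cyclin B1), had no probe set assigned to its symbol in the annotation used and has no value here. RNA came from FVB mouse embryos at E18.5, shortly before birth. Embryos of 4 litters, numbered here by replicate, were sorted by genotype into wild-type controls and Hoxd4 transgenics, which overexpress a homeobox transcription factor. Each litter gave 1 control and 1 transgenic sample and thus 2 arrays, 8 in all. The promoter that drives the transgene, the number of embryos in a sample and their sex are given in none of the sources used here.

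A cell that commits to division makes cyclin E, which with its kinase starts S phase. The MCM proteins, a ring of related subunits, are loaded onto DNA by CDC6 and unwind it at the fork, where PCNA clamps the polymerases and ribonucleotide reductase and thymidylate synthase supply nucleotides. Cyclins A and B with CDK1 then drive mitosis, in which Aurora and Polo kinases, kinesin motors and the checkpoint kinases BUB1, BUBR1 and TTK align and separate the chromosomes, until CDC20 and UBE2C turn the anaphase-promoting complex on cyclin B. Transcription of these sets is known to differ in its control: E2F factors act on many replication genes before S phase, and the MuvB complex with B-MYB and FOXM1 acts later on mitosis genes through an element called the cell cycle genes homology region, often beside CCAAT boxes. In growing cartilage, chondrocytes divide in columns before they stop and enlarge.

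The 5 promoters below show how that split looks in the sequences of some members, and other members do not show it. Mcm3 and Mcm5 code for helicase subunits with some of the lowest litter p-values among members, Plk1 is a mitosis gene that shared their litter order, Cdk1 is the kinase that starts mitosis, and Cdc20 is a mitosis gene whose probe sets differed in their litter values. Windows run from 250 bases before to 50 bases after the start of each gene, 300 in all, 5′ to 3′ on the gene's strand, from RefSeq on build GRCm38.p6. They lie at chr1:20820263-20820562 on the minus strand for Mcm3, chr8:75109259-75109558 on the plus strand for Mcm5, chr10:69352863-69353162 on the minus strand for Cdk1, chr7:122159185-122159484 on the plus strand for Plk1 and chr4:118437294-118437593 on the minus strand for Cdc20. Capitals mark matches, on either strand, to the E2F letters TTTCCCGC, TTTCGCGC, TTTGCCGC or TTTGGCGC, to the homology region TTTGAA and to CCAAT.
Mcm3: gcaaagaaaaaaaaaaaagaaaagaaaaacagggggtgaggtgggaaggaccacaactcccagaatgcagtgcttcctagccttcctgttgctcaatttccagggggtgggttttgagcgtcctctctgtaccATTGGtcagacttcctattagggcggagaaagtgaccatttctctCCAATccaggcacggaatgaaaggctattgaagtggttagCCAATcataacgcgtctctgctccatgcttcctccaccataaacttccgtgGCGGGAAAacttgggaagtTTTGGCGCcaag
Mcm5: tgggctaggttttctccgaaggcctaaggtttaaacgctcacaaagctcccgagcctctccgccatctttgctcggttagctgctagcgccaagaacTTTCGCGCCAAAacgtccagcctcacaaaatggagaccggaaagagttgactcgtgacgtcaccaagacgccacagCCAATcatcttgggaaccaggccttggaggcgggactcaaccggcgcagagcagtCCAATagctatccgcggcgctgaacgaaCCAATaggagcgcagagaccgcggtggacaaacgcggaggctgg
Cdk1: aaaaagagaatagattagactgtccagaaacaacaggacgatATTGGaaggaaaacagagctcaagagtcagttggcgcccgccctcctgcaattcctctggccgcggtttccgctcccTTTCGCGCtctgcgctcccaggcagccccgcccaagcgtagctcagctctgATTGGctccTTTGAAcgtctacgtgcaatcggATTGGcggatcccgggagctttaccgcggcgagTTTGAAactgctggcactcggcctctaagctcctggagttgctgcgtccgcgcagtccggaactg
Plk1: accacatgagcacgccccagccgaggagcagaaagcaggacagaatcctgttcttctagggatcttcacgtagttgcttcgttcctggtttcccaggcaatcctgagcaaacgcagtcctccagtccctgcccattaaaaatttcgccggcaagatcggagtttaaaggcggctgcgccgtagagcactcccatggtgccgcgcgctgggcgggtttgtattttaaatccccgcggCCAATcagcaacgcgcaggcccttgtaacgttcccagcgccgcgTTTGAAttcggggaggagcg
Cdc20: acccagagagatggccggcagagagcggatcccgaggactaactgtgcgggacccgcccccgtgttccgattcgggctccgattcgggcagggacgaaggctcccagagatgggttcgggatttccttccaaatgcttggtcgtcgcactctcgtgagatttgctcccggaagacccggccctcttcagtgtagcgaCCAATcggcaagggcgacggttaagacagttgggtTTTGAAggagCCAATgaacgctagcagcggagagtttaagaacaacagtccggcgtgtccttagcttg

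A window was given for 31 of the 38 members, 11 of replication and 20 of mitosis. The E2F letters were found in 5 of the 11 replication members (Mcm3, Mcm5, Mcm6, Mcm7 and Cdc6) and in 1 of the 20 mitosis members (Cdk1), against 2.60% of all 27025 genes with a window. TTTGAA was found in 14 of the 20 mitosis members, among them Ccnb2, Aurka, Plk1, Ttk, Kif11, Cdc20, Ube2c, Mki67 and Top2a, and in 1 replication member (Mcm2), against 20.2% of all genes. CCAAT was found in 8 replication and 17 mitosis members, against 41.1% of all genes. Matches to different motifs overlapped once, in an Mcm7 window, and E2F matches overlapped each other in Mcm5 and Mcm6. Mcm2 and Rrm2, whose litter p-values were below that of Mcm3, held no E2F match. Birc5, which shared the litter order of Plk1, held no match to any of the motifs. These are matches of letters and not measured binding sites.

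The samples carried cartilage genes at high signal on every array. All 14 chondrocyte markers looked up were bright enough to be tested, and Col2a1, the main cartilage collagen, lay between 36480 and 50824 on the scale of the MAS5 signal, the intensity that the deposited table gives. Other cells of a rib digest were present too: the 10 skeletal muscle markers summed to 27567 to 41977 in control and 25957 to 37304 in transgenic arrays, and the 8 erythroid markers on the array to 6609 to 14053 and 5514 to 10795. In such bulk RNA, fewer dividing cells and less of a transcript per cell cannot be told apart, and neither can the cell types that the cell cycle transcripts came from. The brighter of the probe sets assigned jointly to Hoxd4 and Hoxd3 gave 27.3, 42.6, 4.10 and 256 in controls of litters 1 to 4 and 94.1, 415, 172 and 13.0 in transgenics, as MAS5 signals, so it went against the label in litter 4, and every direction below rests on the labels. Rank correlations between arrays lay between 0.932 and 0.942.

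The first comparison asks whether cell cycle transcripts differ between control and Hoxd4-transgenic chondrocytes. None of the 37 measured members did so past the threshold by its brightest probe set. In limma 0 had an adjusted p under 0.05 (lowest 1.00), and 0 had an unadjusted p under 0.05. Of all 22518 probe sets tested, 0% passed the adjusted and 3.29% the unadjusted threshold. In all, 18 members were higher and 19 lower in arrays labelled transgenic, with log2 fold changes from -0.18 to 0.20 on log2(signal + 32). On this scale, which makes fold changes of dim genes smaller, every one of the 37 had a 95% interval within 1.5-fold in either direction. So had 85.5% of all probe sets. The widest reached from -0.54 to 0.22, for Tyms. These intervals hold for each gene alone and for the groups as labelled.

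**Figure D1:**
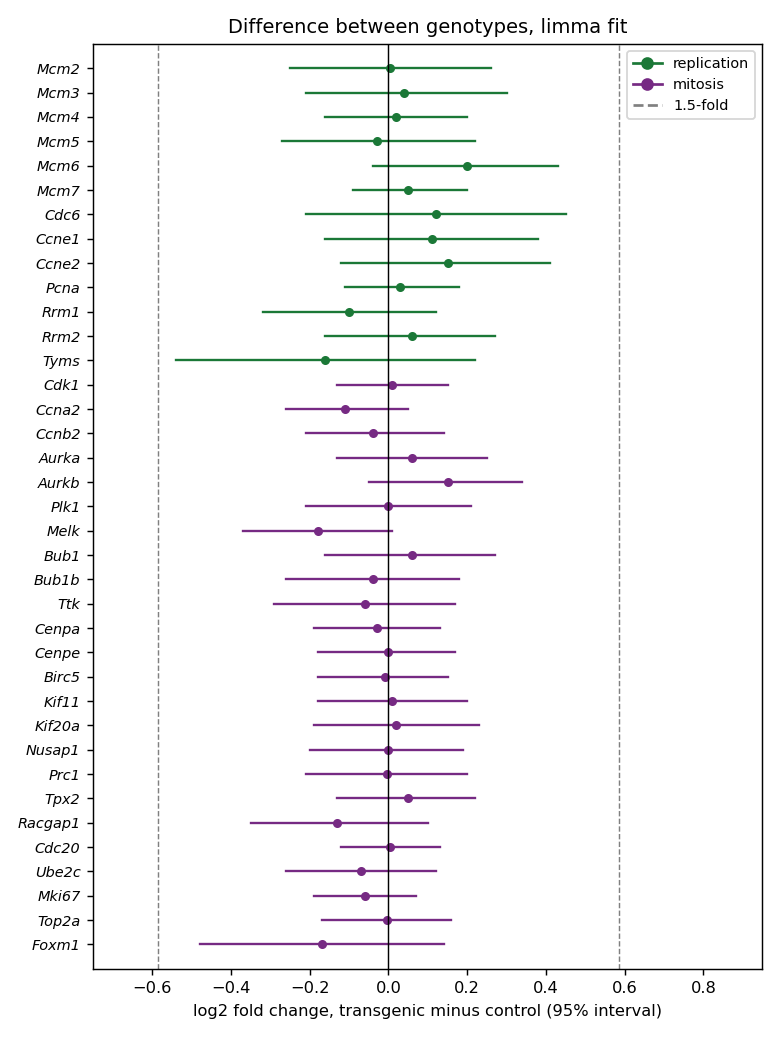
Log2 fold change (transgenic minus control) of each of the 37 measured members with its 95% interval from the limma fit, replication members in green and mitosis members in purple. Dashed lines mark a 1.5-fold change; all intervals lie between them and all include 0.

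Replication members had a median log2 fold change of 0.04 (10 higher, 3 lower of 13), and mitosis members one of -0.004 (8 higher, 16 lower of 24). The median over all tested probe sets was 0.003, with 51.2% of them higher. The replication median lay between -0.01 and 0.08 when single arrays were left out, and it turned to -0.01 without the control array of litter 2 or the transgenic array of litter 4.

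Of the helicase, Mcm6, a subunit of the MCM ring, gave 2664, 1944, 2396 and 2951 in controls of litters 1 to 4 and 3144, 2756, 2617 and 2814 in transgenics, as MAS5 signals. It was higher in the transgenic array of 3 of 4 litters, and the groups overlapped. The low control array of litter 2 stood apart most, and the log2 fold change of 0.20 (95% interval -0.04 to 0.43) had an adjusted p of 1.00 in limma, without the litter in the model, and of 0.89 with it. The value was 0.09 without that array and 0.01 with its probe sets averaged, among them a probe set too dim to be tested (mean signal 30.8). Mcm7, the subunit with the brightest probe set of this role, had signals of 6744, 5656, 6517 and 5980 in controls and 6645, 6051, 6478 and 6646 in transgenics. Its means of 6224 ± 496 (SD, n = 4) and 6455 ± 281 (SD, n = 4) differed by less than the spread within the groups. Mcm2, Mcm3, Mcm4 and Mcm5 lay between -0.03 and 0.04, and Cdc6, the helicase loader, was at 0.12 (95% interval -0.21 to 0.45).

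Both cyclins of S phase entry had positive differences that did not pass the test. Ccne2 (cyclin E2) gave 1379, 1094, 1420 and 1600 in controls of litters 1 to 4 and 1529, 1245, 1515 and 1811 in transgenics, as MAS5 signals. It was the only replication member higher in the transgenic array of all 4 litters, by 0.15, 0.18, 0.09 and 0.18 on the log2 scale. The groups still overlapped, since arrays of litter 2 were low in both and arrays of litter 4 high. Its log2 fold change of 0.15 (95% interval -0.12 to 0.41) did not pass, with an adjusted p of 1.00 in limma and of 0.89 with the litter in the model. Leaving out single arrays moved it from 0.05 (without the control of litter 2) to 0.24 (without the transgenic of litter 2). In the model with the litter Ccne2 and Mcm6 had unadjusted p of 0.042 and 0.033, the 2 members of 37 under 0.05, against 5.54% of all probe sets, and 0 members passed after adjustment. Ccne1 (cyclin E1) was at 0.11 and higher in 3 of 4 litters.

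At the fork, Pcna, the sliding clamp, had signals of 14894, 12444, 13250 and 13970 in controls and 13493, 13038, 14041 and 15271 in transgenics. The groups overlapped over most of their range, and the log2 fold change was 0.03 (95% interval -0.11 to 0.18). Of the nucleotide enzymes, the reductase subunits Rrm1 and Rrm2 were at -0.10 and 0.06 and Tyms, thymidylate synthase, at -0.16. The Tyms value came from a dim probe set with signals of 108 to 168. A brighter one, assigned to Tyms and a pseudogene together and therefore not used, was at -0.10.

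Among the mitotic cyclins and kinases, Melk, a kinase of dividing cells, had the smallest p of all members. In litters 1 to 4 its signals were 881, 999, 892 and 895 in controls and 861, 731, 779 and 857 in transgenics. It was lower in the transgenic array of all 4 litters, and it was the 1 member whose groups did not overlap, as was the case for 2.27% of all probe sets. The groups came closest at 881 and 861, both in litter 1. The difference was largest in litter 2, where the array labelled transgenic was lowest and the control highest. The log2 fold change was -0.18 (95% interval -0.37 to 0.01; unadjusted p = 0.065 and adjusted p = 1.00 in limma). Aurkb, the kinase of the chromosomal passenger complex, ran the other way, with signals of 584, 580, 651 and 587 in controls and 667, 613, 722 and 672 in transgenics. It was higher in all 4 litters, by 0.15 on the log2 scale over all litters (95% interval -0.05 to 0.34), but 1 control array lay inside the range of the transgenic ones. With Ccne2, these were the 3 members of 37 that ran 1 way in all litters, a share to be read against 13.4% of all probe sets. Cdk1, the kinase that starts mitosis, had signals of 5459, 4686, 4971 and 4938 in controls and 5148, 4781, 4956 and 5226 in transgenics, a log2 difference of 0.01 (95% interval -0.13 to 0.15). Its direction turned with quantile normalization. Ccna2 (cyclin A2) had means of 2838 ± 205 (SD, n = 4) and 2633 ± 130 (SD, n = 4) and was lower in 3 of 4 litters (-0.11). Its signals were 2971, 2557, 2816 and 3009 in controls and 2582, 2629, 2509 and 2814 in transgenics, which overlapped. Ccnb2, Aurka and Plk1 lay between -0.04 and 0.06.

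Members of the checkpoint and kinetochore lay between -0.06 and 0.06. Birc5 (survivin), the brightest of them by probe set, had signals of 3898, 3262, 3661 and 3833 in controls and 3908, 3492, 3382 and 3712 in transgenics. The groups overlapped almost wholly. Bub1, Bub1b (BUBR1) and Ttk, kinases of the spindle checkpoint, Cenpa, the centromeric histone, and Cenpe, a kinetochore motor, likewise had intervals that included 0. Of the spindle genes, Racgap1, a regulator of the cleavage furrow, had the largest difference, with signals of 1551, 1254, 1345 and 1194 in controls and 1360, 1280, 1019 and 1233 in transgenics. Its log2 fold change was -0.13 (95% interval -0.35 to 0.10), and the arrays of both groups overlapped. Nusap1, a microtubule-binding spindle protein, had signals of 2142, 1781, 2200 and 2140 in controls and 2075, 2112, 1803 and 2271 in transgenics. A single array was low in each group, the control of litter 2 and the transgenic of litter 3. Kif11, Kif20a, Prc1 and Tpx2, motors and builders of the spindle, lay between -0.005 and 0.05. Cdc20, which activates the anaphase-promoting complex, had signals of 6987, 6339, 6573 and 6473 in controls and 6915, 6623, 6557 and 6322 in transgenics. The brightest probe set thus varied 1.11-fold from the lowest to the highest array. A dimmer one, without a shared-target suffix, gave 3328 and 3078 in litter 1, 2945 and 2923 in litter 2, 2574 and 2514 in litter 3, and 3285 and 3227 in litter 4. There all arrays of litters 1 and 4 lay above the others, and this probe set is among those counted below. Ube2c, the ubiquitin-conjugating enzyme of the same complex, was at -0.07.

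The markers most used to stain dividing cells did not separate the genotypes. Mki67, which codes for the Ki-67 antigen that coats mitotic chromosomes, had signals of 5653, 5522, 5694 and 6086 in controls and 5639, 5559, 5146 and 5660 in transgenics. The highest array was a control and the lowest a transgenic, and the others lay close together. Its means were 5739 ± 243 (SD, n = 4) and 5501 ± 241 (SD, n = 4), a log2 difference of -0.06 (95% interval -0.19 to 0.07). Top2a, the topoisomerase that untangles sister chromosomes, had signals of 4781, 3998, 4516 and 4512 in controls and 4773, 4465, 3941 and 4596 in transgenics. Both groups held 1 low array, in litter 2 and litter 3, and the log2 fold change was -0.003 (95% interval -0.17 to 0.16). Foxm1, a transcription factor of mitosis genes, was dimmer, with signals of 370, 278, 299 and 302 in controls and 258, 321, 217 and 308 in transgenics. It was lower by 0.47 and 0.41 on the log2 scale in litters 1 and 3 but higher by 0.19 and 0.03 in litters 2 and 4.

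The members varied between samples, and they varied together. Within replication members the median Pearson correlation of pairs of genes over the 8 arrays was 0.63 (Spearman 0.62, 78 pairs), within mitosis members it was 0.40 (Spearman 0.36, 276 pairs) and between the phases 0.40 (Spearman 0.38, 312 pairs). The median over all pairs of tested genes was 0.002. With each genotype's mean taken out the values were 0.66, 0.42 and 0.44. These values are a description: arrays come in pairs from a litter and genes on an array share its RNA and scaling. Without the 2 arrays of litter 2, which lay farthest from the median, they were 0.45, 0.49 and 0.28. Tyms, at -0.72, was the only replication member with a negative median correlation with the others of its phase, from the dim probe set described above. In mitosis Cenpa and Aurkb were negative, at -0.37 and -0.28.

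**Figure D2:**
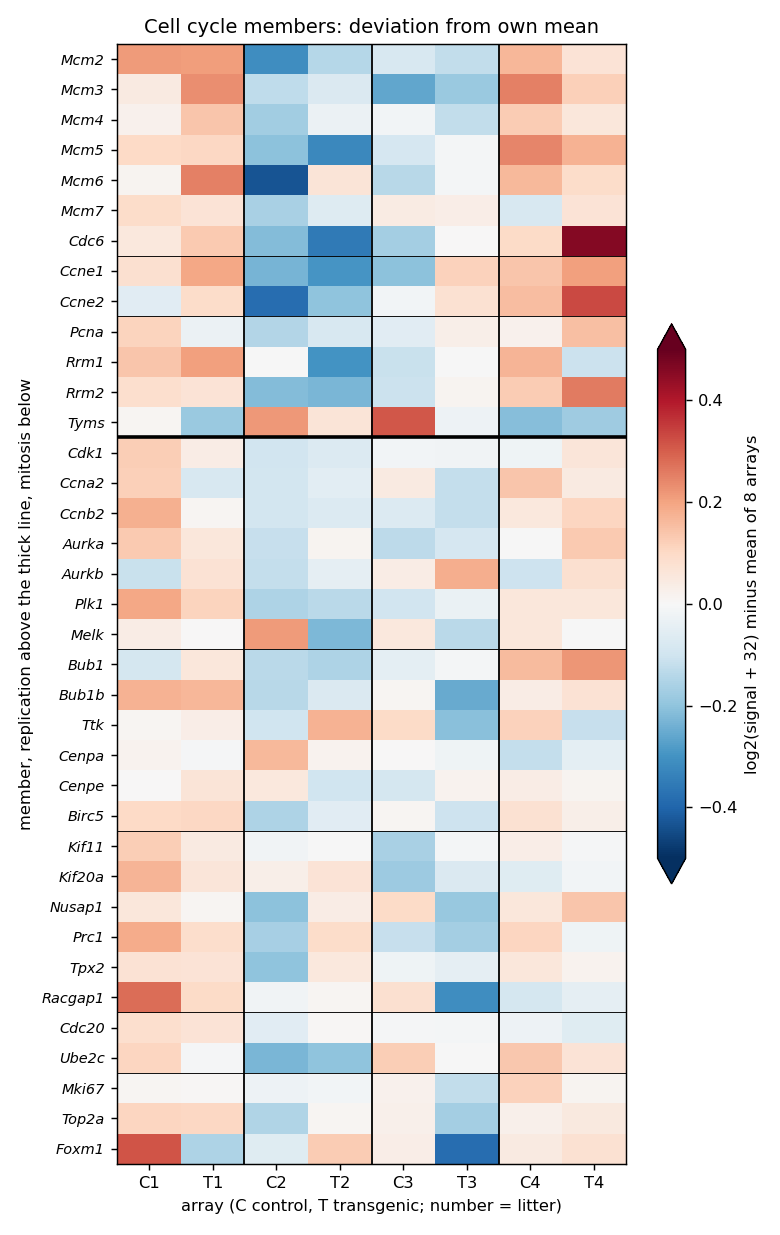
Deviation of each member (rows, grouped by role) from its own mean over 8 arrays, on log2(signal + 32), with the arrays (columns) set side by side by litter; C is control and T transgenic. Among replication members, red lies mainly in both arrays of litters 1 and 4 and blue in both arrays of litter 2; Tyms runs the opposite way.

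For replication members the shared pattern followed the litter. The number of the 13 above their own mean was 12 and 11 in the control and transgenic arrays of litter 1, 1 and 2 in litter 2, 2 and 6 in litter 3, and 11 and 11 in litter 4. The median deviation was 0.08 and 0.13 in litter 1, -0.21 and -0.14 in litter 2, -0.08 and -0.002 in litter 3, and 0.14 and 0.12 in litter 4. Both arrays were thus high in litters 1 and 4 and low in litter 2, while in litter 3 the control array was low and the transgenic array lay near the mean. Over all tested genes the median deviation of an array lay between -0.01 and 0.01. Of the 24 mitosis members, the number above their own mean was 22 and 20 in litter 1, 4 and 11 in litter 2, 13 and 2 in litter 3, and 17 and 16 in litter 4. Here the transgenic array of litter 3 held the lowest value of 9 members and the control array of litter 1 the highest of 12.

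**Figure D3:**
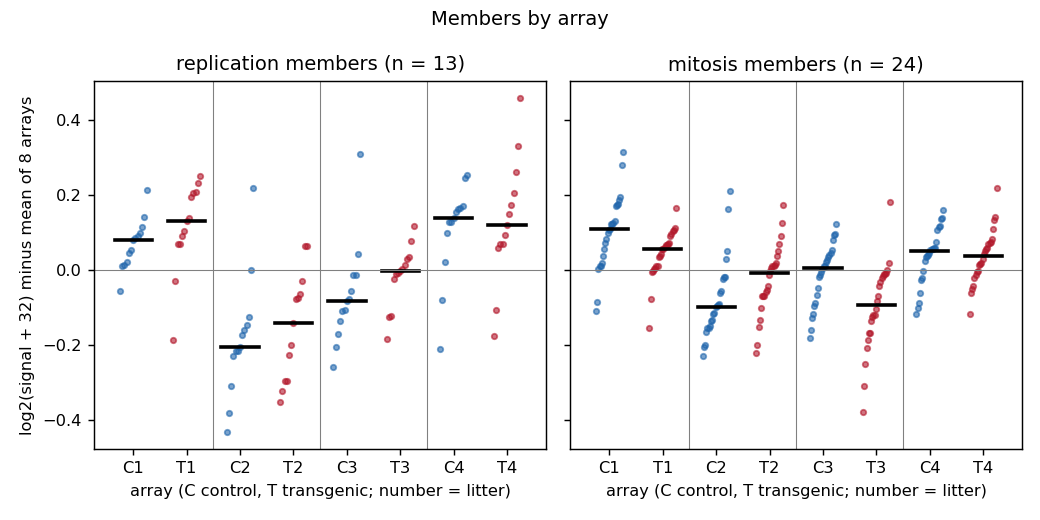
Deviation of the members (points) and their median (black bar) in each array, on log2(signal + 32) relative to each gene's mean over 8 arrays, control in blue and transgenic in red. The replication medians are positive in both arrays of litters 1 and 4 and negative in both of litter 2; the mitosis medians stay between -0.10 and 0.11.

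A moderated F test for the litter in limma, with the genotype in the model, was chosen after these values were seen. It called 0 of the 37 members at an adjusted p under 0.05, against 0.484% of all probe sets. At an unadjusted p under 0.05 it counted 8 of 13 replication and 2 of 24 mitosis members, against 14.6% of all probe sets. The 8 were Mcm2, Mcm3, Mcm5, Mcm6, Cdc6, Ccne1, Ccne2 and Rrm2, and the 2 were Bub1 and Ube2c. The brightest probe sets of 6 replication members (Mcm3, Mcm5, Mcm7, Cdc6, Ccne1 and Rrm2) and of 9 mitosis members carry a suffix (_s, _x or _a) that the array maker gives to probes shared by several transcripts, of 1 gene or of more. Probe sets without such a suffix were tested for 11 replication and 19 mitosis members. Among these, 7 and 2 had an unadjusted p under 0.05 by their brightest probe sets, and 5 and 3 by those without a suffix. With all probe sets averaged per gene, also those too dim to be tested, the counts over 13 and 24 members were 4 and 4. The litter held a median of 79.0% of the variance of a replication member and 64.6% of that of a mitosis member, against 52.1% for all probe sets. Whether the phases differ in this was not tested.

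Mcm5 had the lowest litter p of the members. Its signals in control and transgenic arrays were 3843 and 3860 in litter 1, 3110 and 2864 in litter 2, 3387 and 3570 in litter 3, and 4259 and 4051 in litter 4. The ranges of the litters did not overlap, with litter 2 lowest and litter 4 highest, and the lowest and highest arrays differed 1.49-fold. The adjusted p was 0.067 in limma. Rrm2, the regulatory subunit of ribonucleotide reductase, had signals of 5300 and 5237 in litter 1, 4293 and 4263 in litter 2, 4640 and 5040 in litter 3, and 5457 and 5988 in litter 4 (adjusted p = 0.085 in limma). Its remaining 2 probe sets showed litters 1 and 4 above 2 and 3 as well. Ccne2, with the values given above, had an adjusted p of 0.081 in limma. Without litter 3, Mcm5, Rrm2 and Ccne2 passed in limma, at adjusted p of 0.030, 0.047 and 0.043. None of the 3 did without litter 1 (0.21, 0.23 and 0.22), litter 2 (0.34, 0.35 and 0.43) or litter 4 (0.18, 0.23 and 0.26), nor with no filter on signal (0.18, 0.21 and 0.19). With probe sets averaged per gene the adjusted p of Mcm5 was 0.77 in limma. That average includes a probe set near background, with signals of 6.46 to 44.1, which was too dim to be tested. Mcm2 had signals of 1822 and 1814 in litter 1, 1257 and 1417 in litter 2, 1481 and 1433 in litter 3, and 1762 and 1645 in litter 4 (adjusted p = 0.13 in limma). Mcm3 had 1889 and 2155, 1673 and 1736, 1523 and 1604, and 2185 and 1989 in the same order (adjusted p = 0.14 in limma).

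All 4 arrays of litters 1 and 4 lay above all 4 of litters 2 and 3 for 10 members, 6 of replication (Mcm2, Mcm3, Mcm4, Mcm5, Cdc6 and Rrm2) and 4 of mitosis (Ccnb2, Plk1, Bub1b and Birc5). The same order held for 2.64% of all probe sets, and the opposite order for 3.61% of all and for 0 members. This order was read from the members' own values and is given as a description. Plk1, the Polo kinase, had signals of 1016 and 957 in litter 1, 789 and 802 in litter 2, 824 and 863 in litter 3, and 921 and 919 in litter 4. Its log2 fold change between genotypes was -0.0003, and the litter held 94.7% of its variance.

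**Figure D4:**
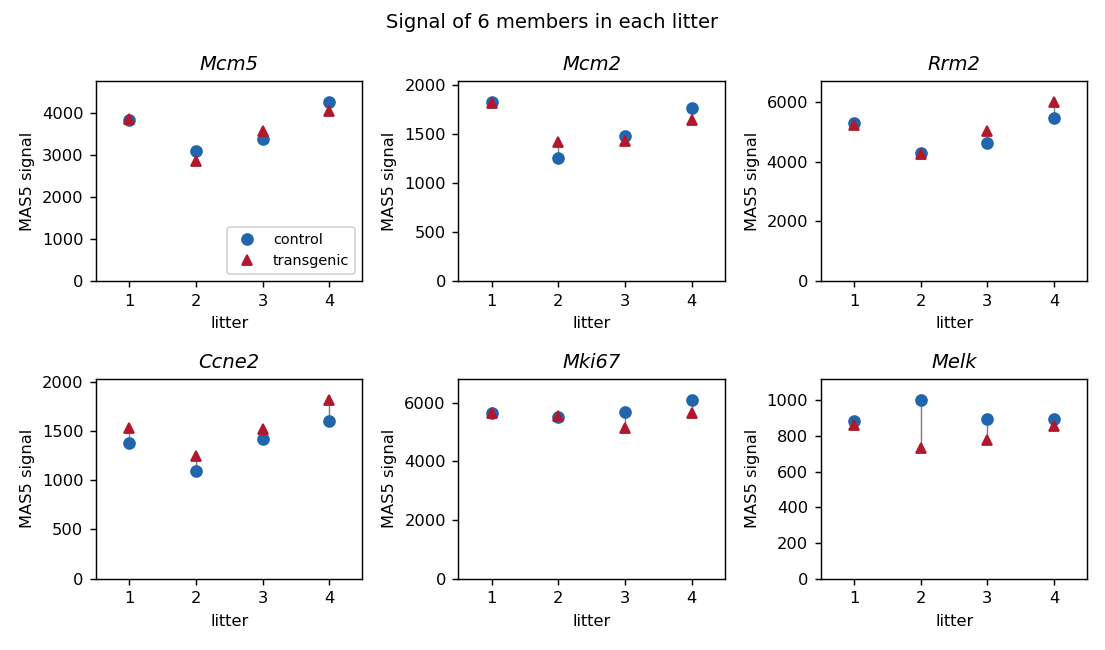
MAS5 signal (linear axis from 0) of 6 members in each litter, with control as circles, transgenic as triangles and a line joining the arrays of a litter. Mcm5, Mcm2, Rrm2 and Ccne2 dip in litter 2 in both genotypes; Mki67 hardly differs, and Melk is lower in the transgenic array of every litter.

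Other probe sets of the same genes followed in part. Of 33 further tested probe sets, from 22 members, 22 had the same direction between genotypes as the brightest and 11 the opposite. Of the 15 for replication members, 5 had an unadjusted litter p under 0.05 in limma, and 4 showed litters 1 and 4 above 2 and 3, against 14.6% and 2.64% of all probe sets. Of the 18 for mitosis members, the counts were 4 and 3. A second probe set of Mcm5 gave 1462 and 1393 in litter 1, 1233 and 1392 in litter 2, 1102 and 1191 in litter 3, and 1460 and 1510 in litter 4. Litters 1 and 4 were again the higher ones, while litter 3 and not litter 2 was lowest. A second probe set of Mcm6 was also lowest in litter 2, by less (1644 and 1648, against 1696 to 1933 in the others), and had a log2 fold change of -0.03 between genotypes, opposite to the value above. That of Ccne1 was at 0.08, with signals between 455 and 577. Dimmer probe sets of Cenpe and Tpx2, with mean signals of 186 and 306, had log2 fold changes of -0.46 and 0.34 between genotypes. Their unadjusted p in limma was 0.044 and 0.03, and 3.29% of all probe sets were under 0.05. The brightest probe sets of these genes were at -0.001 and 0.05.

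The rest of the pathway was read from 121 further cell cycle genes in 9 lists, of which 117 were tested. Between genotypes 55 were higher and 62 lower, with a median log2 fold change of -0.004. In limma 0 passed the adjusted threshold and 1 the unadjusted one, against 0% and 3.29% of all probe sets. That 1 was Smc4, a condensin subunit that compacts chromosomes. It gave 6539, 6106, 5841 and 6062 in controls of litters 1 to 4 and 5888, 4832, 5140 and 3781 in transgenics, as MAS5 signals. It was lower in each litter's transgenic array, most in litter 4, and 1 transgenic array lay inside the control range (log2 fold change -0.34, 95% interval -0.56 to -0.11, adjusted p = 1.00 in limma). The next smallest p belonged to members of the E2F family of transcription factors and to a kinesin: E2f4 at 0.39, Kif18a at 0.24, E2f2 at -0.37, E2f6 at -0.23 and E2f7 at 0.17. The intervals of all these genes included 0. The probe set of E2f4 was dim, with signals of 100 to 200.

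Between litters, genes of origin firing and of the fork deviated on average in the same direction as the replication members, by less. Of 38 tested, the number above their own mean was 26 and 24 in the control and transgenic arrays of litter 1, 7 and 9 in litter 2, 16 and 15 in litter 3, and 29 and 28 in litter 4. Their mean deviations were 0.04 and 0.02, -0.09 and -0.06, -0.04 and -0.03, and 0.08 and 0.07. At an unadjusted litter p under 0.05 in limma there were 7 of 38, a share near the 14.6% of all probe sets. All 4 arrays of litters 1 and 4 lay above the others for 8 of 38, against 2.64% of all. Of 45 kinetochore, condensin, kinesin and cytokinesis genes the counts were 10 and 4. Their mean deviations were -0.01 and 0.01, -0.09 and -0.05, 0.0007 and -0.01, and 0.08 and 0.06 in litters 1 to 4. In litters 2 and 4 these lay close to those of the 38 genes, so that part was not particular to replication. Nuf2, a subunit of the complex that holds microtubules at the kinetochore, had an adjusted litter p of 0.039 in limma. It was the only one of the 117 under 0.05, against 0.484% of all probe sets. It had signals of 583 and 475 in litter 1, 432 and 428 in litter 2, 829 and 834 in litter 3, and 998 and 679 in litter 4, so its order was not that of the replication members. Dut, the enzyme that clears dUTP, had signals of 2549 and 2566 in litter 1 and between 1824 and 2331 in the other litters.

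Markers of other cells also differed between litters. The 9 macrophage markers summed to 884 and 876 in the control and transgenic arrays of litter 1, 2589 and 1901 in litter 2, 1409 and 2300 in litter 3, and 1183 and 1217 in litter 4. They were thus lower in both litters in which the replication members were higher. Only 5 of the 9 were bright enough to be tested. Of these, 3 had an unadjusted litter p under 0.05 in limma, against 14.6% of all probe sets. For 2 all arrays of litters 1 and 4 lay below those of litters 2 and 3, against 3.61% of all. C1qa and C1qc were among those too dim to be tested, between 4.17 and 150. The 8 fibroblast and perichondrium markers summed to 169764 and 167742, 191252 and 199069, 187753 and 186130, and 169432 and 190235 in the same order. Skeletal muscle markers summed to 27668 and 25957, 41977 and 34129, 30240 and 35293, and 27567 and 37304. Granulocyte markers summed to 3294 and 2998, 5855 and 2662, 2317 and 2453, and 3709 and 6976. The transgenic array of litter 4 was high in both. Of the tested markers, 6 of 10 for muscle and 3 of 4 for granulocytes had an unadjusted litter p under 0.05 in limma. Erythroid markers were low in litters 1 and 2 and high in litters 3 and 4, with sums of 6609 and 5514, 7795 and 7272, 14053 and 10795, and 11387 and 9078, an order unlike that of the replication members. Only Alas2, Slc4a1 and Hbb-b2 of their 8 were bright enough to be tested. Chondrocyte markers summed to 364935 to 410660 with no such order in the sum. Of the 14, 4 had an unadjusted litter p under 0.05 in limma, against 14.6% of all probe sets. Matn1 was the 1 with all arrays of litters 1 and 4 above those of 2 and 3, and 1 marker had the opposite order. Sums of 4 column chondrocyte markers (Fgfr3, Pth1r, Sox5 and Sox6) were 17035 and 17578, 14570 and 15502, 16698 and 14497, and 15396 and 15560 in the same order of arrays. Eif2s3y, Kdm5d and Uty, Y-linked genes, exceeded their control values in the transgenic arrays of all 4 litters, with log2 fold changes of 0.92, 0.75 and 0.86, and Xist, which silences an X chromosome in females, was at -3.68. Its control and transgenic signals were 5778 and 79.8 in litter 1, 9945 and 3266 in litter 2, 13760 and 47.2 in litter 3, and 8098 and 8209 in litter 4, where it was not lower. These differences stand beside every genotype value above. The part of cell make-up or sex in the values of the members was not tested.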

How the data were processed

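RNA of 4 control and 4 transgenic samples was measured on one-colour Affymetrix arrays. The deposited table holds probe set intensities; the submitters' processing notes name MAS5 as the authors' software. The sources used here give neither its version nor detection calls. Arrays had been scaled: with 2% cut from each end, every array averaged 500. MAS5 subtracts mismatch signal, which leaves dim probe sets noisy. No depth exists for arrays, and their number limits the precision.

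After 64 control probe sets were left out, values were turned to log2(signal + 32), the constant lying at the arrays' typical 25th percentile, which makes fold changes of dim genes smaller. The 22518 probe sets with a mean signal above the median of 105.9 entered limma 3.58.1 (lmFit, then eBayes with trend; R 4.3.3, statmod 1.5.0), transgenic minus control, with Benjamini-Hochberg adjustment over all of them and a threshold of 0.05. The litter was tested with a moderated F test beside the genotype. On simulated arrays with independent noise, false calls stayed near the threshold for the genotype test but exceeded it for the litter test. Litter p-values close to the threshold are thus to be read with care. Noise shared by the genes of an array was not simulated, so for such noise neither rate is known. Python 3.11.15 and matplotlib 3.10.9 made the figures. Names came from the platform annotation of GEO, looked up again by gene identifier.

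Replicate numbers were read as those of litters, from the design text, and so pair the arrays. The sample titles number the replicates and name no litter. Deviations of same-litter arrays correlated at 0.28, 0.17, 0.04 and 0.14 in litters 1 to 4, against a mean of -0.05 for arrays of different litters. The labels name no covariate, and the chosen fit had no replicate block.

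Members and lists were chosen with earlier results of these data known. Array values are printed for Mki67, Top2a, Pcna and Cdk1, the member with the brightest probe set of each role, the 8 members with the smallest p and those that ran 1 way in all litters, and for the 6 other cell cycle genes with the smallest p log2 fold changes are given. Mcm2, Mcm3, Mcm5, Rrm2, Plk1, Nuf2 and Dut were added for their litter values after these were seen.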

Additional observations from a re-analysis of the deposited data

Results flagged for a closer look

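Single arrays stood far from the other 3 of their group in 5 of 74 groups of 4 arrays examined, the gap to the nearest being more of the group's range than chance gives in about 1 of 20 groups. Aurkb had a signal of 651 in the control array of litter 3, with the others at 580 to 587. Melk was at 999 in the control array of litter 2, with the others at 881 to 895. Kif11 was at 766 in the transgenic array of litter 1, with the others at 737 to 741. Nusap1 was at 1781 in the control array of litter 2, with the others at 2140 to 2200, and Ube2c at 4083 in the same array, with the others at 5165 to 5264.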

How the results depend on the processing

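Over 20 alternatives, 0 members and 0 of the other cell cycle genes were called between genotypes, and the lowest adjusted p of a named member in limma was 0.88. Of 296 values of the 15 named members, 262 kept their direction and 34, of 6 genes near 0, did not; the cause was not tested. With the replicate block, fixed or random, 0 of all probe sets passed, and the pairing changed no call. Leaving out arrays or litters gave 0 to 2 calls among all probe sets: Xist without transgenic replicate 4, and 2 probe sets of Dcaf12l1 without litter 4. Of the log2 fold changes, quantile normalization turned Cdk1 to -0.001 and Cdc20 to -0.005. Probe sets without a shared-target suffix turned Top2a to 0.08 and Cdc20 to -0.05, and averaging a gene's probe sets turned Nusap1 to 0.28 and Cdc20 to -0.10. Such averages include probe sets too dim to be tested. For Nusap1 the added probe set had a mean signal of 87.6. Leaving out arrays or litters moved Top2a over -0.06 to 0.06, Pcna -0.01 to 0.09, Cdk1 -0.03 to 0.05, Birc5 -0.07 to 0.02, Nusap1 -0.08 to 0.09, Cdc20 -0.02 to 0.03, Mcm6 0.09 to 0.29, Ccne2 0.05 to 0.24 and Melk -0.23 to -0.09, the replication median over -0.01 to 0.08 and the mitosis median over -0.06 to 0.02.

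The litter test depended more on such choices. Calls among all probe sets, 109 as reported, were 30 with no filter, where 45037 probe sets were tested, 22 when a gene's probe sets were averaged, and 10 (without litter 1) to 286 (without litter 3) when arrays or litters were left out. Replication members called ranged over 0 to 3 and those with an unadjusted p under 0.05 over 4 to 9, with 4 from the mean of probe sets and 5 from probe sets without a shared-target suffix, which 11 of the 13 had. For mitosis members the unadjusted count ranged over 0 to 5, with 4 from the mean. Median correlations ranged over 0.45 to 0.70 within replication, 0.25 to 0.49 within mitosis and 0.28 to 0.49 between the phases, and the mean of probe sets gave 0.17 within mitosis and 0.23 between the phases.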
